A study of Mus musculus with 6 samples.

Results

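Messenger RNA levels of 10 genes that shape and clear mitochondria were read in interscapular brown adipose tissue (iBAT) of control and *ob/ob* mice. They were chosen by name and comprise the fusion genes *Mfn1*, *Mfn2* and *Opa1*, the OPA1 protease gene *Oma1*, the fission genes *Dnm1l*, *Fis1* and *Mff*, and the mitophagy genes *Pink1*, *Bnip3* and *Sqstm1*. All 10 were on the array, with 17 probes between them that were well above background on all 6 arrays, among 19007 named genes and 35448 probes tested. Values are log2 units of the scanner signal after quantile normalization, which gives all arrays the same distribution, and the brightest probe stood for a gene with several. The samples were 3 control and 3 *ob/ob* arrays, all from male mice of C57BL/6 background aged 16 weeks. *ob/ob* mice carry a mutated leptin gene and become obese. The labels call the comparison mice "control" without a further genotype, and do not say whether 1 array held the RNA of 1 mouse or of several, so each p value measures the spread between these samples only. As the tissue was read whole, fewer cells of a type and less RNA per cell cannot be told apart.

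Mitochondria join and divide continually. Mitofusin 1 and mitofusin 2 tether and fuse the outer membranes, OPA1 fuses the inner membranes and keeps cristae in shape, and OMA1 cuts OPA1 under stress. Division is carried out by DRP1, the product of *Dnm1l*, a dynamin that is recruited to the outer membrane by adaptors such as MFF, whereas FIS1 sits in the same membrane with a smaller part in that recruitment. In mitophagy, damaged mitochondria are marked by the kinase PINK1 or bound through receptors such as BNIP3, and p62, the product of *Sqstm1*, links ubiquitin-tagged cargo to the autophagosome. In brown fat, division of mitochondria accompanies adrenergic activation, and autophagy removes mitochondria as beige adipocytes whiten.

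The arrays did not group by genotype alone, and this bears on every value below. Over the probes tested, control 1 and control 2 had a Spearman correlation of 0.96, and *ob/ob* 1 and *ob/ob* 2 of 0.97, but control 3 reached 0.64 and 0.73 against its own group, yet 0.91 and 0.94 when set beside *ob/ob* 1 and *ob/ob* 2. *ob/ob* 3 correlated at 0.57 and 0.49 with the other *ob/ob* arrays and at 0.86 with control 1. Changes that rested on single arrays are therefore also given over all 6 fits that leave out 1 array. The labelled spike-in RNA had a median of 4.01 log2 units on *ob/ob* 3, against 6.19 to 7.10 on the other arrays before normalization, and its part in the values was not tested. The brown fat markers *Ucp1* and *Cidea* were detected on all 6 arrays. *Ucp1*, the uncoupling protein of brown fat, read 13.05, 11.72 and 9.48 log2 units on control arrays 1 to 3, against 8.93, 9.12 and 10.03 on *ob/ob* arrays 1 to 3.

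No gene of the 10 passed the test. At an adjusted p under 0.05, limma called 0 of 10 genes and 0 of 17 probes, as it did 0 of all 35448 probes (0.0% called). The methods' t-test on the same values also called 0 after adjustment, with 1512 probes at an unadjusted p under 0.05. At an unadjusted p under 0.05, 0 of 10 genes were called by their brightest probe, where 2.04% of all genes tested were called higher and 1.69% lower, and 1245 probes in all passed that mark. By the brightest probe, 6 of 10 genes had a negative log2 fold change (*ob/ob* minus control) and 4 a positive one, with a median of −0.07 and a range from −0.79 in *Dnm1l* to 0.98 in *Mff*. The median over all 19007 genes was −0.09, and 42.8% of them were on the positive side. The groups overlapped for all 10 genes, whereas 8.0% of all genes showed no overlap. In 8 of the 10 genes the SD of at least 1 group exceeded the change itself, as the plot of each gene by array shows.

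**Figure D1:**
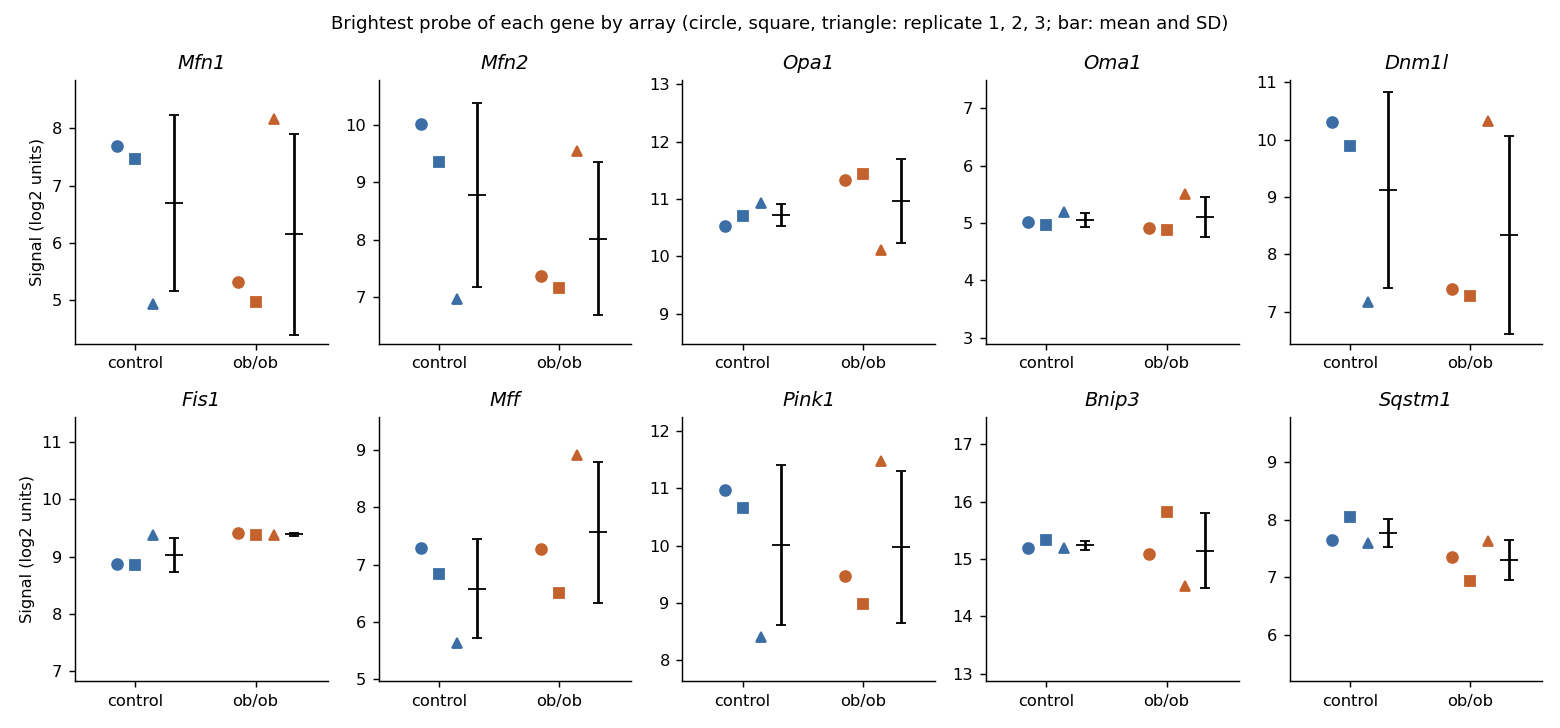
Quantile-normalized log2 signal (y axis) of the brightest probe of each of the 10 genes in control and *ob/ob* iBAT, with 1 symbol per array and the mean ± SD of each group beside it. All panels span the same number of log2 units. In *Mfn1*, *Mfn2*, *Dnm1l* and *Pink1*, control 3 sits far below the other controls and *ob/ob* 3 far above the other *ob/ob* arrays.

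Promoters are shown for *Mfn1*, *Mfn2*, *Dnm1l* and *Pink1*, because these genes ordered the arrays alike, and for *Bnip3*, because 1 of its probes separated the groups. Each window runs from 250 bases before to 50 after an annotated start, 5′ to 3′ on the strand of the gene, from RefSeq on build GRCm38.p6. Capitals mark matches, on either strand, to the motif of the respiratory factor NRF1 and to the letters CCGGAAG of ETS factors such as GABPA, AAGGTCA of ERR receptors and ACGTG of HIF. For *Mfn2* and *Dnm1l*, which have 3 and 2 annotated starts, a window with a match is printed. The windows lie at chr3:32529232-32529531 (plus strand), chr4:147904649-147904948 (minus), chr16:16358526-16358825 (minus), chr4:138326247-138326546 (minus) and chr7:138909457-138909756 (minus).
Mfn1: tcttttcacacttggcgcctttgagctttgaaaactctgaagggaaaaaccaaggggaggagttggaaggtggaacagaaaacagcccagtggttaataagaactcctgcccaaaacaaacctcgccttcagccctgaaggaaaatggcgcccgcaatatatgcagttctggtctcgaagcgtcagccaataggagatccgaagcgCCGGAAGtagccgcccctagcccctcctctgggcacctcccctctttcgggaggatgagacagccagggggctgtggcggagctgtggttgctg
Mfn2: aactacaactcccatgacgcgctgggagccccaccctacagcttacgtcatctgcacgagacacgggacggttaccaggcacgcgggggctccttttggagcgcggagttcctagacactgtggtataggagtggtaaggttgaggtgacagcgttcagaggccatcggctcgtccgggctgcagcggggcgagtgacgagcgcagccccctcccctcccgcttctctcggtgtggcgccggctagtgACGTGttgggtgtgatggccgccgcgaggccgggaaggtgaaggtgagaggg
Dnm1l: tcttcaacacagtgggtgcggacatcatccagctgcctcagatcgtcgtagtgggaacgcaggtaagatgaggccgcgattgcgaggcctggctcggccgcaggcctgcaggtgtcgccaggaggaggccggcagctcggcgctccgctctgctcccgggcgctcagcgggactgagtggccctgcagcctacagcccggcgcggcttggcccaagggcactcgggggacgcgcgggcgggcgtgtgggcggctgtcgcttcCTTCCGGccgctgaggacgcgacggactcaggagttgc
Pink1: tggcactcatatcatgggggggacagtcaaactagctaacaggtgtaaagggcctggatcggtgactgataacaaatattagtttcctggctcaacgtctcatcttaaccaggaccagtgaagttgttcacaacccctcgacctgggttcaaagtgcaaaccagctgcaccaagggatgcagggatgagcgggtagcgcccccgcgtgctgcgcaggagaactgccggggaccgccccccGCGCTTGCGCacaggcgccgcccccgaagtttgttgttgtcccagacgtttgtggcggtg
Bnip3: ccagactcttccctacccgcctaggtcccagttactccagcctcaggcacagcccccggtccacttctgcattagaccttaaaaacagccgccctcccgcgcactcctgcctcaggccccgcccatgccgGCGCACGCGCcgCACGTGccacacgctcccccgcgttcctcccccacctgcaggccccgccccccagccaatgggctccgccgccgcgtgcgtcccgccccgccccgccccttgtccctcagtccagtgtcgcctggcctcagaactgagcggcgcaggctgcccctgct

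No match was common to all 5 promoters. *Mfn1* and *Dnm1l* hold the ETS letters, *Pink1* the NRF1 motif, *Mfn2* the HIF letters, and *Bnip3* both the NRF1 motif and the HIF letters, the latter within the E-box CACGTG. The 10 genes have 15 windows, and windows of the same gene can overlap. The NRF1 motif occurs in 4 of the 15 (*Opa1*, *Oma1*, *Pink1* and *Bnip3*) and in 4.6% of 32851 promoter windows of this length. The ETS letters occur in 4 of the 15 (*Mfn1*, *Dnm1l* and *Fis1*) and in 8.86% of all windows. The HIF letters occur in 3 of the 15 (*Mfn2* and *Bnip3*) and in 19.6% of all. The ERR letters are in none of the 15 windows and in 4.72% of all. Of the other motifs searched, CCAAT is in 6 of the 15 and 37.4% of all, and the E-box in 1 and 7.15%. The letters TGACNNNGC and GTAAACA are in none of the 15, and in 12.4% and 3.65% of all. A match describes letters only, and these windows were not tested for binding.

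Among the fusion genes, *Mfn1* and *Mfn2* varied by over 3 log2 units between arrays of the same kind of tissue. The brightest probe of *Mfn1* read 7.69, 7.47 and 4.93 log2 units on control arrays 1 to 3, against 5.32, 4.97 and 8.16 on *ob/ob* arrays 1 to 3. Control 3 lay with *ob/ob* 1 and *ob/ob* 2, and *ob/ob* 3 was the highest of all 6. The means were 6.70 ± 1.53 (SD, n = 3) and 6.15 ± 1.75 (SD, n = 3), and the log2 fold change was −0.55 with a 95% interval from −3.22 to 2.13 (limma, adjusted p = 1.0). *Mfn2* read 10.01, 9.36 and 6.96 on the control arrays, against 7.36, 7.15 and 9.55 on the *ob/ob* arrays. Its order of arrays was close to that of *Mfn1*, with control 1 highest. The log2 fold change of *Mfn2* was −0.76, with an interval from −3.17 to 1.65 (limma, adjusted p = 1.0). Leaving out 1 array moved the *Mfn1* change from −1.48 (without control 3) to 0.0397 (without *ob/ob* 2), with −1.37 without *ob/ob* 3 and −0.05 without control 1. For *Mfn2* it ran from −1.69 (without control 3) to −0.14 (without control 1), with −1.48 without *ob/ob* 3.

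*Opa1*, the inner membrane fusion gene, did not share this order. Its brightest probe read 10.54, 10.70 and 10.93 log2 units on control arrays 1 to 3, against 11.33, 11.44 and 10.12 on *ob/ob* arrays 1 to 3. *ob/ob* 1 and *ob/ob* 2 were above every control, and *ob/ob* 3 was below every control. The log2 fold change was 0.24 (standard error 0.45, limma, adjusted p = 1.0). Leaving out *ob/ob* 2 gave −0.000525. Without *ob/ob* 3 it was 0.68, with no overlap between the groups and an unadjusted limma p of 0.0419, and the adjusted p was 0.503. The array left out there was the one by which the groups overlapped. In that fit 3471 probes of the array had an unadjusted p under 0.05, against 1245 with all arrays. *Oma1*, whose protease cuts OPA1, was read by 1 probe at 5.02, 4.96 and 5.20 on the control arrays, against 4.91, 4.89 and 5.51 on the *ob/ob* arrays. These values span 0.62 log2 units, and the change of 0.04 (interval −0.76 to 0.85) was under the spread of either group. Without *ob/ob* 3 it was −0.15, and without *ob/ob* 2 it was 0.15.

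The fission genes split in the same way. *Dnm1l*, which encodes the dynamin that divides mitochondria, was read by 1 probe at 10.31, 9.88 and 7.17 log2 units on control arrays 1 to 3, against 7.40, 7.27 and 10.33 on *ob/ob* arrays 1 to 3. As in *Mfn1*, *ob/ob* 3 stood at the level of control 1 and control 2, and control 3 was the lowest array. The means were 9.12 ± 1.71 (SD, n = 3) and 8.33 ± 1.73 (SD, n = 3), a log2 fold change of −0.79 with an interval from −3.57 to 1.99 (limma, adjusted p = 1.0). Without control 3 the change was −1.79, and without *ob/ob* 3 it was −1.74. It shrank to −0.19 without control 1, −0.26 without *ob/ob* 2, −0.32 without *ob/ob* 1 and −0.41 without control 2. *Mff*, which encodes the main adaptor for DRP1, read 7.28, 6.83 and 5.63 on the control arrays, against 7.28, 6.50 and 8.91 on the *ob/ob* arrays. Control 3 was again lowest and *ob/ob* 3 highest, but *ob/ob* 1 was level with control 1, and the log2 fold change was 0.98 (interval −0.82 to 2.78). It was 0.51 without control 3 and 0.27 without *ob/ob* 3, but 1.32 without control 1 and 1.56 without *ob/ob* 2.

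*Fis1* was the steadiest fission gene by its brightest probe. Its brightest probe read 8.87, 8.86 and 9.38 log2 units on control arrays 1 to 3, against 9.41, 9.37 and 9.38 on *ob/ob* arrays 1 to 3. The *ob/ob* arrays agree within an SD of 0.02, and control 3 lay level with the lowest of them. The log2 fold change was 0.35 (interval −0.41 to 1.12, exact permutation test, two-sided, p = 0.20, where 3 samples against 3 cannot go below 0.10). It was 0.27 without control 1. Without control 3, the array by which the groups overlapped, it was 0.53 and the groups did not overlap, with an unadjusted limma p of 0.190.

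Of the mitophagy genes, *Pink1* varied most by the brightest probe. It read 10.98, 10.66 and 8.42 log2 units on control arrays 1 to 3, against 9.48, 8.98 and 11.47 on *ob/ob* arrays 1 to 3. Control 3 was the lowest array and *ob/ob* 3 the highest, so that the group means, 10.02 ± 1.40 (SD, n = 3) and 9.98 ± 1.32 (SD, n = 3), differed by −0.04 with an interval from −2.28 to 2.20. Without control 3 the log2 fold change was −0.84, and without *ob/ob* 3 it was −0.79, whereas leaving out any of the other arrays gave a positive value, from 0.21 to 0.46. *Sqstm1*, the p62 gene, read 7.66, 8.04 and 7.60 on the control arrays, against 7.34, 6.94 and 7.63 on the *ob/ob* arrays. Only *ob/ob* 3 reached the range of the controls, just above control 3, and the log2 fold change was −0.46 (interval −1.30 to 0.37, exact permutation test, two-sided, p = 0.20). It was negative in all 17 alternative settings, from −0.57 to −0.28. Several of these settings refit the same group means of its 1 probe, so their sign could not turn. The others reuse the same arrays. The −0.57 came without control 3, and the −0.28 from the fit within the scan of *ob/ob* 1, which holds 1 *ob/ob* array. Apart from that fit, which has too few arrays for a test, no setting passed an unadjusted p under 0.05.

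The 3 probes of *Bnip3*, a mitophagy receptor gene that is induced by low oxygen, gave different values. The brightest read 15.19, 15.33 and 15.18 log2 units on control arrays 1 to 3, against 15.08, 15.82 and 14.52 on *ob/ob* arrays 1 to 3, a log2 fold change of −0.09 (interval −1.10 to 0.91). It was 0.21 without *ob/ob* 3 and −0.44 without *ob/ob* 2. No spot on any array was saturated. The next probe read 9.53, 9.28 and 6.64 on the control arrays, against 8.70, 8.19 and 11.44 on the *ob/ob* arrays, a change of 0.96 (interval −1.76 to 3.68), with control 3 lowest and *ob/ob* 3 highest. The dimmest read 5.53, 5.09 and 5.26 on the control arrays, against 5.90, 6.22 and 6.88 on the *ob/ob* arrays. Here every *ob/ob* array lay above every control, a log2 fold change of 1.04 with an interval from 0.12 to 1.96. This was the only probe of the 17 without overlap and the only 1 with an unadjusted p under 0.05 (limma, 0.0321), against 3.74% and 1.99% of all probes in this direction (7.92% without overlap in either direction, and 1.52% lower at that p), and its adjusted p was 1.0. The change was 0.71 without *ob/ob* 3, 0.48 with normexp background correction, and 0.51 within the scan that control 1, control 3 and *ob/ob* 1 shared. The exact permutation test, two-sided, gave p = 0.10, its lower limit in this design. The unadjusted mark was missed with 75th percentile scaling, at a limma p of 0.126. It was also missed without control 1, control 2, control 3 or *ob/ob* 2, at values from 0.0565 to 0.115. The fit with the scan as a block compares only *ob/ob* 1 with control 1 and control 3, too few arrays for a test.

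**Figure D2:**
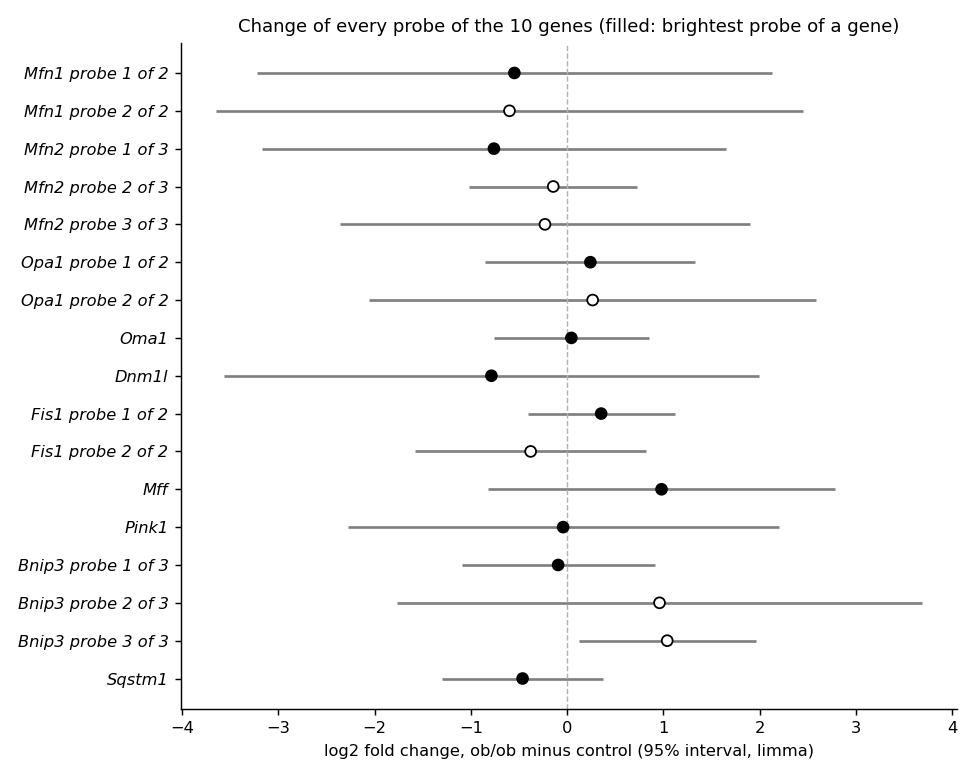
log2 fold change (x axis, *ob/ob* minus control) of all 17 probes of the 10 genes, with the 95% interval of the limma fit. Filled points are the brightest probe of a gene. The interval of 16 probes spans 0, and that of the dimmest *Bnip3* probe lies between 0.12 and 1.96.

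Probes of the same gene also disagreed for *Mfn2*, *Opa1* and *Fis1*. For *Mfn2*, the second probe read 7.60, 7.91 and 7.99 log2 units on control arrays 1 to 3, against 7.84, 8.03 and 7.21 on *ob/ob* arrays 1 to 3, a change of −0.14, and thus stayed within 0.83 units where the brightest spanned 3.04. The third *Mfn2* probe read 6.73, 5.89 and 4.68 on the control arrays, against 4.82, 4.53 and 7.26 on the *ob/ob* arrays, an order like that of the brightest. The dimmer *Opa1* probe read 7.44, 6.69 and 5.25 on the control arrays, against 5.96, 5.59 and 8.63 on the *ob/ob* arrays, so that *ob/ob* 3, the lowest array by the bright probe, was the highest by the dim probe. The dimmer *Fis1* probe gave a change of −0.38 where the brighter gave 0.35. By contrast, both *Mfn1* probes ran together, with a mean absolute difference of 0.21 log2 units between their profiles after centering, against 1.43 for the brightest and the second *Mfn2* probe and 1.39 for the *Opa1* pair. Whether these probes read different transcripts was not tested.

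**Figure D3:**
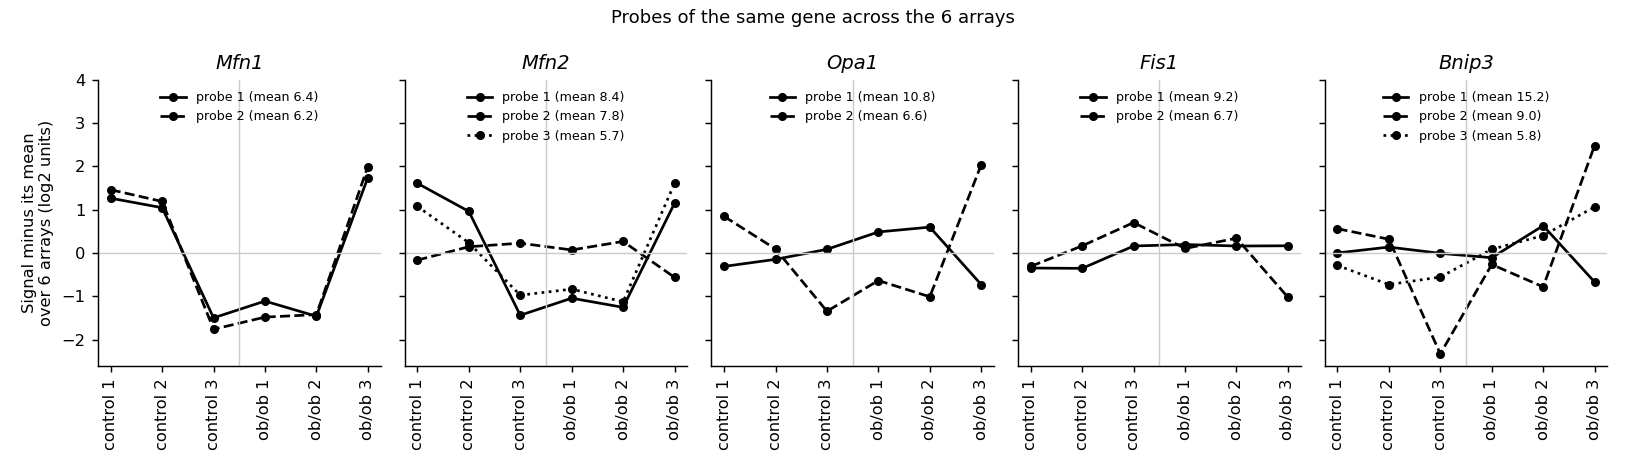
Signal of each probe minus its own mean over the 6 arrays (y axis, log2 units) for the 5 genes with more than 1 probe, by array (x axis). Probes are numbered from the brightest. The *Mfn1* probes overlie each other, whereas the probes of *Mfn2*, *Opa1* and *Bnip3* diverge on control 3 and *ob/ob* 3.

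A shared order of arrays was seen in genes of opposite roles. After each profile was centered on its mean over the 6 arrays, *Mfn1* and *Dnm1l* were the closest pair, with a mean absolute difference of 0.14 log2 units, *Mfn2* was closest to *Dnm1l* (0.21), and *Pink1* to *Mfn1* (0.34). *Opa1* and the brightest *Bnip3* probe were closest to each other (0.23). *Oma1* and *Fis1* were also closest to each other (0.26), but they spanned only 0.62 and 0.55 log2 units and did not share an order. In *Oma1*, *ob/ob* 1 and *ob/ob* 2 were the lowest arrays, whereas in *Fis1* *ob/ob* 1 was the highest. In 5 of the 10 genes (*Mfn1*, *Mfn2*, *Dnm1l*, *Mff* and *Pink1*), control 3 lay over 1 log2 unit below the other controls and *ob/ob* 3 over 1 log2 unit above the other *ob/ob* arrays, as it did for 20.7% of all genes tested. These likenesses rest on 6 arrays and are given without a test.

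The arrays could also be described by the mean of the 3 fusion genes (*Mfn1*, *Mfn2*, *Opa1*) less the mean of the 3 fission genes (*Dnm1l*, *Fis1*, *Mff*), each gene centered on its own mean. This difference was 0.37, 0.43 and 0.00 log2 units on control arrays 1 to 3, against −0.25, −0.08 and −0.48 on *ob/ob* arrays 1 to 3. All *ob/ob* arrays were below all controls, by 0.54 on average, but control 3 at 0.00 and *ob/ob* 2 at −0.08 lay close together. Among single genes, 8.0% showed no overlap in either direction, and no such share was computed for differences of this kind. The order was not kept with normexp background correction or with the mean of all probes of a gene, under which 2 of 3 *ob/ob* arrays lay below all controls and the group means differed by −0.31 and −0.29. No test was run on it, since the genes were chosen with earlier results of these data known.

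Transcripts of the respiratory chain and markers of skeletal muscle followed the same arrays. In the list of 23 respiratory chain, citrate synthase and import genes, control 3 was below both other controls for 23 of 23 genes, and *ob/ob* 3 was above both other *ob/ob* arrays for 23 of 23, compared with 7 of 10 and 7 of 10 for the fusion, fission and mitophagy genes and with 38.4% and 41.2% of all genes. The median of that list was 11.40, 10.97 and 8.18 log2 units on control arrays 1 to 3, against 9.69, 9.44 and 11.90 on *ob/ob* arrays 1 to 3, and its median log2 fold change was −0.07. The 12 skeletal muscle markers, from myosin and troponin genes to parvalbumin, had a median of 10.22, 10.74 and 7.79 on the control arrays, against 6.37, 6.27 and 11.75 on the *ob/ob* arrays. For 11 of 12 of them control 3 was below both other controls and for 11 of 12 *ob/ob* 3 was above both other *ob/ob* arrays. None of the 12 was below background throughout, and *Myh4*, a fast-fiber myosin, ranged from 6.96 to 14.96. The part of muscle RNA in the values of *Mfn1*, *Mfn2*, *Dnm1l* and *Pink1* was not tested.

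**Figure D4:**
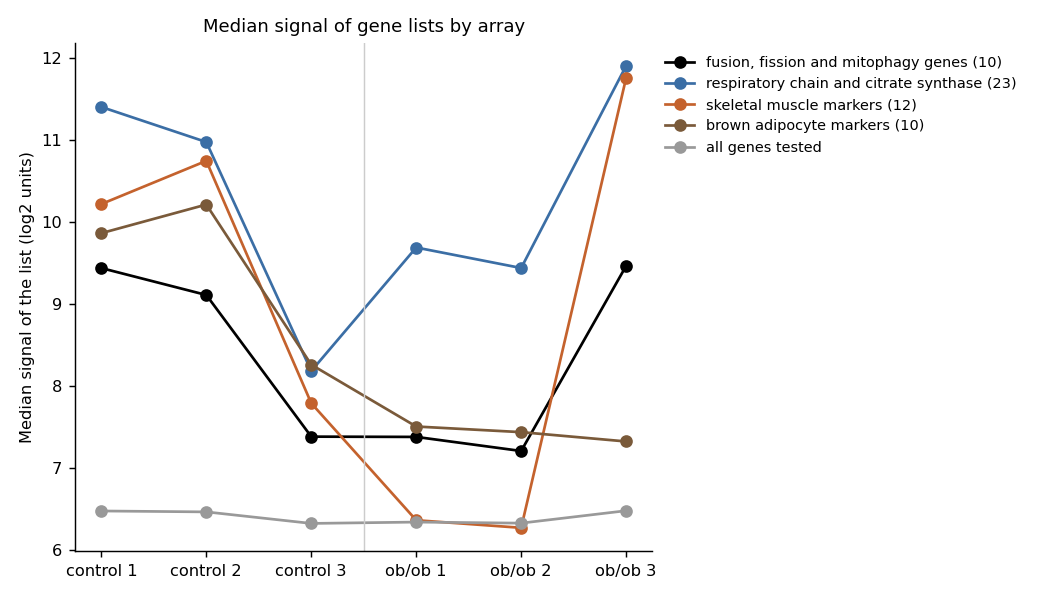
Median log2 signal (y axis) of 5 gene sets on each of the 6 arrays (x axis). The medians of the 10 fusion, fission and mitophagy genes, of the respiratory chain list and of the skeletal muscle markers are low on control 3 and high on *ob/ob* 3 within their groups, and the median of the brown adipocyte markers lies between 7.33 and 7.51 on the *ob/ob* arrays.

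Of the 10 brown adipocyte markers, control 3 was below both other controls for 10 of 10 and *ob/ob* 3 above both other *ob/ob* arrays for 8 of 10. They had a median of 9.86, 10.21 and 8.26 log2 units on control arrays 1 to 3, against 7.51, 7.44 and 7.33 on *ob/ob* arrays 1 to 3, and 9 of 10 had a negative log2 fold change. *Cidea*, a lipid droplet protein gene of brown fat, read 12.38 on *ob/ob* 3 and 11.16 on control 3. The 9 macrophage markers measured had medians from 6.78 to 7.94 on control arrays and from 7.32 to 7.88 on *ob/ob* arrays, and those of white adipocytes from 6.23 to 6.73 and from 6.64 to 6.69. Endothelial markers ranged from 6.29 to 7.24 and from 5.77 to 6.82, and the 4 erythrocyte markers measured from 8.11 to 9.91 and from 6.97 to 9.90. None of these lists had a gene past an adjusted p under 0.05.

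Since the 6 arrays were read in 4 scans, only *ob/ob* 1 could be set against controls of its own scan, control 1 and control 3. Within it, the differences were −0.99 for *Mfn1*, −1.13 for *Mfn2*, 0.60 for *Opa1*, −0.19 for *Oma1*, −1.34 for *Dnm1l*, 0.29 for *Fis1*, 0.82 for *Mff*, −0.22 for *Pink1*, −0.11 for *Bnip3* and −0.28 for *Sqstm1*. The sign was that of the comparison over all arrays for 9 of 10 genes, all but *Oma1*. The arrays of this scan are part of that comparison, so the likeness of sign is not independent of it. The within-scan differences rest on 1 *ob/ob* array. Its value lies between those of control 1 and control 3 for *Mfn1*, *Mfn2*, *Dnm1l*, *Mff* and *Pink1*. For *Mff* it was 7.277, just below control 1 at 7.284.

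**Figure D5:**
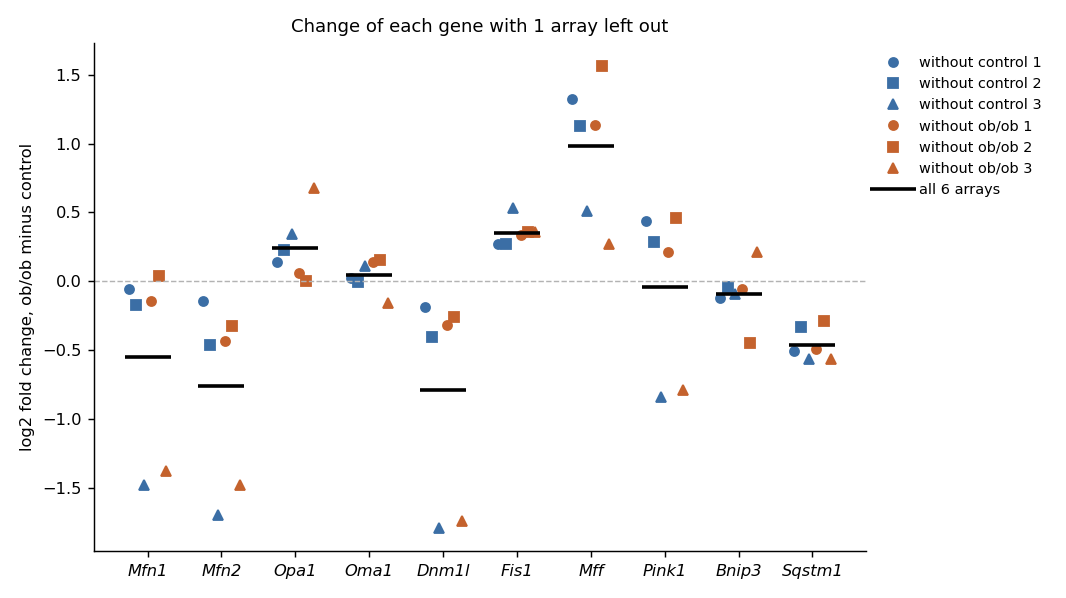
log2 fold change of each of the 10 genes (y axis, *ob/ob* minus control) with all 6 arrays (bar) and with 1 array left out (symbols). For *Mfn1*, *Mfn2*, *Dnm1l* and *Pink1* the values without control 3 and without *ob/ob* 3 lie below all others, down to −1.79 in *Dnm1l*, and the values without the other arrays lie above the bar, up to 0.46 in *Pink1*.

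Further genes of the pathway were read from lists of fusion and cristae genes, fission genes, mitophagy genes and core autophagy genes. Of 92 such genes 91 were tested, 37 had a positive and 54 a negative log2 fold change, and the median was −0.08 beside −0.09 for all genes. Control 3 was below both other controls for 60 of 91 and *ob/ob* 3 above both other *ob/ob* arrays for 61 of 91. None passed an adjusted p under 0.05. At an unadjusted p under 0.05, limma found 4 of 91 higher and 3 of 91 lower, where 2.04% and 1.69% of all genes were. The groups did not overlap for 4 of 91 higher and 2 of 91 lower, where 8.0% of all genes showed no overlap in either direction. The genes without overlap named below were picked by that rule. The medians were −0.29 for 19 fusion and cristae genes and −0.05 for the 16 genes of the fission list. They were −0.09 for 22 mitophagy genes and −0.04 for 34 core autophagy genes. The fission list also holds *Rhot1*, *Rhot2*, *Trak1* and *Trak2*, which are genes of mitochondrial transport. Closest in profile to the median of the 10 genes were *Rb1cc1*, an autophagy initiation gene, *Apoo*, a cristae gene, and *Dnm2*, a dynamin gene, at mean absolute differences of 0.14, 0.17 and 0.21 log2 units.

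Of the 7 genes past the unadjusted mark, 3 were fission genes, all on the positive side. *Marchf5*, which encodes a ubiquitin ligase of the outer membrane that acts on DRP1 and mitofusins, read 7.49, 7.37 and 7.19 log2 units on control arrays 1 to 3, against 8.10, 7.95 and 8.47 on *ob/ob* arrays 1 to 3. The groups did not overlap, and the log2 fold change was 0.82 (standard error 0.32, limma, adjusted p = 1.0), but its dimmer probes gave 0.61 and 0.28 with overlap. *Mtfr1l*, of the mitochondrial fission regulator family, read 8.19, 7.83 and 8.12 on the control arrays, against 8.69, 8.96 and 9.61 on the *ob/ob* arrays, a change of 1.04 (standard error 0.37, limma, adjusted p = 1.0), and 0.26 by its dimmer probe. *Mtfr2*, of the same family, read 12.24, 11.45 and 14.52 on the control arrays, against 14.96, 14.72 and 14.70 on the *ob/ob* arrays, with control 3 near the *ob/ob* level. Its change was 2.06, 2.81 without control 3 and 1.43 without control 2 (standard error with all arrays 0.79, limma, adjusted p = 1.0), whereas the other *Mtfr2* probe was not well above background on any of the 6 arrays. The largest negative value among fission genes was that of *Mul1*, another ubiquitin ligase gene of the outer membrane, at −1.29 with overlapping groups, from −2.21 without control 3 to −0.72 without control 1.

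Mitophagy genes past the same mark lay on both sides. *Optn*, which encodes the cargo receptor optineurin, read 7.17, 7.34 and 7.39 log2 units on control arrays 1 to 3, against 6.13, 6.52 and 6.33 on *ob/ob* arrays 1 to 3. The groups did not overlap, with SDs of 0.12 and 0.19 and a log2 fold change of −0.97 (standard error 0.30, limma, unadjusted p = 0.0171, adjusted p = 1.0). *Bcl2l13*, which encodes a mitophagy receptor of the outer membrane, read 7.80, 7.83 and 6.94 on the control arrays, against 5.97, 6.39 and 6.70 on the *ob/ob* arrays, a change of −1.17 without overlap. *Pgam5*, a mitochondrial phosphatase gene, read 7.66, 7.36 and 7.06 on the control arrays, against 8.33, 8.28 and 9.93 on the *ob/ob* arrays, a change of 1.48. *ob/ob* 3 was the highest here, and the change was 0.88 without it and 1.81 without *ob/ob* 2. All 7 genes, *Atg7* of the autophagy list included, missed the unadjusted mark without control 2. Their unadjusted limma p ran from 0.0696 for *Optn* to 0.119 for *Mtfr2*. Without control 1 all but *Optn* missed it, and without control 3 *Marchf5*, *Mtfr1l* and *Pgam5* did. Without *ob/ob* 1 all but *Mtfr1l* and *Pgam5* missed it. Without *ob/ob* 2 all but *Optn* and *Pgam5* did, and without *ob/ob* 3 only *Mtfr2* did. All but *Atg7* missed that mark with 75th percentile scaling, at limma p from 0.0590 for *Bcl2l13* to 0.157 for *Marchf5*. The scan block compares only *ob/ob* 1 with control 1 and control 3, too few arrays for a test.

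In core autophagy, *Atg7*, whose enzyme activates ATG12 and LC3 for conjugation, read 10.44, 10.67 and 7.44 log2 units on control arrays 1 to 3, against 6.79, 6.41 and 7.64 on *ob/ob* arrays 1 to 3. The groups overlapped by control 3, the log2 fold change was −2.57 (standard error 0.92, limma, unadjusted p = 0.0299, adjusted p = 1.0), and the dimmer *Atg7* probe gave −0.07. The *Atg7* change was −3.66 without control 3, −2.01 without control 2 and −1.32 over the mean of its probes. *Atg16l1*, which encodes a partner of ATG5 and ATG12, had the largest positive value of this list at 2.17, with control 3 at 10.09 against 6.46 and 5.96 in the other controls, and its change was 3.54 without control 3 and 1.41 without control 2. Among fusion and cristae genes detected on all 6 arrays, the extremes were *Immt*, the gene of the cristae organizer mitofilin, at 0.69 and *Phb*, the prohibitin gene, at −0.98, both with overlapping groups. Over the fits that leave out 1 array, *Immt* ran from 0.06 (without *ob/ob* 3) to 1.29 (without *ob/ob* 2) and *Phb* from −1.95 (without control 3) to −0.28 (without control 1).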

How the data were processed

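RNA of 3 control and 3 *ob/ob* iBAT samples was hybridized to Agilent single-dye arrays. The authors deposited the Feature Extraction (version 11.0.1.1, per the labels) output, whose intensity per spot is corrected for background within the array only. They also deposited log2 values quantile normalized in GeneSpring, used as an alternative. Spots with outlier flags were dropped, which removed 104 of 39429 probes, and the spots of a probe were averaged as log2 values. Arrays were quantile normalized. Probes well above background in at least 50% of spots on at least 3 of 6 arrays were tested with limma (version 3.58.1, R version 4.3.3), *ob/ob* minus control, and Benjamini-Hochberg adjustment over all probes. Between 83.5% and 89.9% of spots per array lay well above background, and the number of arrays limits the precision. Probes were named by RefSeq accession (94.9% of RefSeq probes). The brightest probe stands for a gene in counts. Code was tested on simulated data.

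The 10 genes and all lists were chosen with earlier results of these data known. Named further genes are those with an unadjusted p under 0.05 and no overlap, and the largest rise and fall of each list among genes detected on all 6 arrays. A gene that this rule names in the mitophagy list is not reported here. The promoter motifs were chosen after the values were seen. The alternatives were 75th percentile scaling, normexp (offset 50, on the median spot signal), the authors' values, other detection filters, the methods' t-test, limma with trend and robust estimation, a block for the replicate number or for the scan, the removal of 1 array at a time, and the mean of a gene's probes. Protein sequences and probe sequences were not used here.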

Additional observations from a re-analysis of the deposited data

How the results depend on the processing

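Over 17 alternatives, 0 of 170 recomputed changes of the 10 genes passed an adjusted p under 0.05, and 156 of 170 kept their sign. Part of these signs could not turn. The other detection filters, the t-test, limma with trend and robust estimation and the replicate block refit the same group means. The mean of a gene's probes cannot move a gene with 1 probe. The sign turned with the mean of a gene's probes for *Bnip3* (0.64) and *Fis1* (−0.0121), with the 75th percentile for *Oma1* (−0.32) and *Pink1* (0.00463), and with the scan block for *Oma1* (−0.19). Leaving out each array in turn gave −0.44 to 0.21 for *Bnip3*, −1.48 to 0.0397 for *Mfn1*, −0.15 to 0.15 for *Oma1*, −0.000525 to 0.68 for *Opa1* and −0.84 to 0.46 for *Pink1*. It also gave 0 to 1 genes higher at an unadjusted p under 0.05, the 1 being *Opa1* without *ob/ob* 3, and 0 to 3 genes without overlap (*Fis1* and *Sqstm1* without control 3, *Fis1* and *Bnip3* without *ob/ob* 2, and *Opa1*, *Oma1* and *Sqstm1* without *ob/ob* 3). Normexp left 1 gene without overlap (*Sqstm1*, lower), as did the authors' values (*Fis1*, higher). No share of all genes without overlap was computed for these settings or with 1 array left out. Fewer arrays separate more easily, so the 8.0% found with 6 arrays cannot be set beside the counts with 1 array left out. Without *ob/ob* 3, 3471 probes of the array had an unadjusted p under 0.05, against 1245 with all arrays. Limma with trend and robust estimation called 1 probe of the array lower, that of *Impg2* (−6.26, adjusted p = 0.0413), which is none of the 10 genes. The 75th percentile took the median over all probes (log2 fold change) from −0.07 to −0.32, so that relative to all probes *Oma1* stayed near 0. The cause of these changes was not tested.

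Deviations from the group means of same-numbered samples correlated at −0.78, −0.66 and −0.85, within a range from −0.85 to 0.87 over all pairs of a control and an *ob/ob* array. Since control 3 and *ob/ob* 3 stood apart from their groups, these values cannot tell whether the replicate numbers pair the samples. With the replicate block, *Dnm1l* was again −0.79, because in this balanced design the block cannot move a log2 fold change. In that fit 0 probes passed an adjusted p under 0.05, and 359 had an unadjusted p under 0.05, against 1245 without the block. Neither the 7 further genes named for their unadjusted p nor the dimmest *Bnip3* probe (a limma p of 0.117) passed that mark with this block.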
